A study of Mus musculus with 12 samples.

Results

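A set of 9 genes that mark hippocampal cells other than CA1 pyramidal neurons was followed in ribosome-bound RNA that had been collected from CA1 pyramidal neurons of wild-type and Fmr1 -/y mice. The 9 genes are a named set: Rgs14, Pcp4, Amigo2 and Map3k15 for CA2, Bok for CA3, and Prox1, C1ql2, C1ql3 and Dsp for dentate granule cells. All 9 were found by symbol among the 24079 genes of the count table, and all 9 were among the 17823 genes tested, whose reads add up to 15 or more over the 12 libraries. The hippocampi came from Wfs1-CreERT2:RiboTag male mice of 2 to 6 months on a C57BL/6J background, either wild-type or Fmr1 -/y, the latter lacking FMRP, the RNA-binding protein lost in fragile X syndrome. Mice of both genotypes carried the Wfs1-CreERT2 transgene and the RiboTag allele of Rpl22, and both received tamoxifen, so that ribosomes in cells expressing Wfs1 carry a hemagglutinin (HA) tag and can be immunoprecipitated with their mRNAs. Each genotype had 6 libraries, and each library was a pool of 4 to 6 mice.

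The hippocampus is a chain of cell fields. Granule cells of the dentate gyrus send mossy fibers to CA3 pyramidal neurons, CA3 neurons project to CA1, and CA2 is a narrow field between them with its own inputs and a resistance to synaptic potentiation for which Rgs14 is known. The CA1 field is the one in which Wfs1 is abundant, so the genes described here are read in a preparation directed at a different cell type.

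The libraries held 39400980 to 55745464 reads on genes in wild-type mice and 43106629 to 65565479 in Fmr1 -/y mice. Reads of Fmr1 itself numbered 1971 to 2608 in wild-type libraries, and in the Fmr1 -/y libraries they numbered 0 in 5 and 1 in the other. Levels below are CPM, in which TMM scaling puts the counts on one library size, and genotypes were compared over all genes tested with edgeR's quasi-likelihood test and Benjamini-Hochberg adjustment. At an adjusted p under 0.05, 4 of 17823 genes passed, or 0.0224%, and at an unadjusted p under 0.05, 1418 genes did, or 7.96%. The CPM of the 2 genotypes did not overlap for 111 genes, or 0.623%. With an adjusted p under 0.05 as threshold, 84 of the 17823 genes passed in DESeq2 and 4 in limma voom. Of the 9 marker genes, none passed in edgeR, DESeq2 or limma voom, 1 had an unadjusted p under 0.05 in edgeR (11.1% against 7.96% of all genes), and none had groups that did not overlap. Of the 9, 5 were higher and 4 were lower in Fmr1 -/y libraries, with log2 fold changes from -0.38 to 0.42 and a median of 0.02, where the median of all genes tested was 0.0042. Because the libraries are bulk preparations, fewer cells of a type and less RNA per cell cannot be told apart in any value below.

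**Figure D1:**
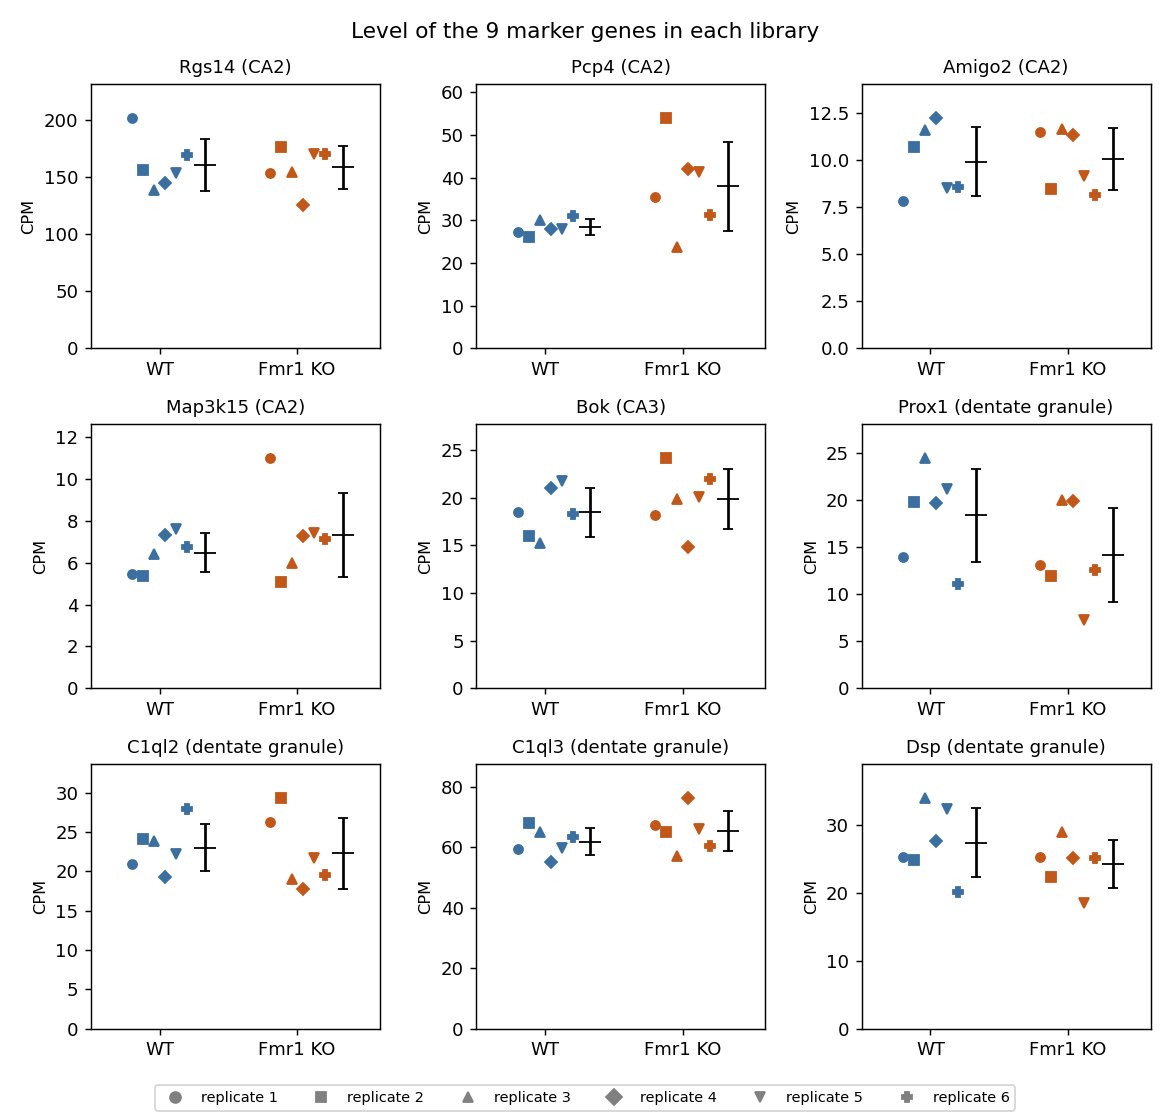
Level of each of the 9 marker genes in each library, in TMM-scaled CPM on axes that start at 0, with wild-type (WT) libraries in blue and Fmr1 -/y (Fmr1 KO) libraries in orange; the symbol gives the replicate number and the black bar the mean and SD of 6 libraries. The groups overlap for all 9 genes, and the Pcp4 points of Fmr1 -/y libraries run from 23.8 to 54.0 CPM where those of wild-type libraries run from 26.1 to 31.0.

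All 9 marker genes were well above the detection limit in each library. Read numbers ran from 223 for Map3k15 to 11095 for Rgs14, the lowest and highest over genes and libraries. To compare genes with each other, CPM was divided by the length of their exons (CPM per kb). Rgs14 was the most abundant at 37.6 ± 4.64 CPM per kb (SD, n = 12), at the 92.4th percentile of the genes tested that have a length, and Pcp4 came next at 32.4 ± 8.45 CPM per kb. C1ql3 followed with 25.1 ± 2.24 CPM per kb, then C1ql2 with 11.3 ± 1.84 and Bok with 10.4 ± 1.55. Lower levels were seen for Amigo2 at 3.15 ± 0.525 CPM per kb, Dsp at 2.67 ± 0.464, Prox1 at 1.94 ± 0.62 and Map3k15 at 1.59 ± 0.358, at the 36.7th percentile. The ranges over the 12 libraries did not overlap between C1ql3 and C1ql2 or between Bok and Amigo2. Dsp was above Prox1 in 12 of 12 libraries, although their ranges overlapped (1.92 to 3.51 and 0.871 to 2.91 CPM per kb). Neighbours that changed places between libraries were Rgs14 and Pcp4 (Rgs14 higher in 9 of 12), C1ql2 and Bok (C1ql2 higher in 7), Amigo2 and Dsp (Amigo2 higher in 9) and Prox1 and Map3k15 (Prox1 higher in 8), while Pcp4 was above C1ql3 in 11. The 3 libraries in which Pcp4 was above Rgs14 were Fmr1 -/y libraries 2, 4 and 5, and the means of Rgs14 and Pcp4 were 37.8 and 27.7 CPM per kb in wild type but 37.3 and 37.0 in Fmr1 -/y libraries.

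Against the other marker lists, Rgs14 and Pcp4 lay above all 9 further CA2 genes and below the middle of the CA1 genes. The 7 CA1 genes had a median level of 78.1 CPM per kb, led by Wfs1, the gene whose promoter drives Cre, at 307 CPM per kb, and Rgs14 lay above Pou3f1 (25.5) and Man1a (4.93) among them. The 4 CA2 marker genes had a median of 17.8 CPM per kb, and 9 further CA2 genes a median of 1.99, from 0.0084 for Fgf2 to 22.0 for Necab2. The 4 granule cell genes had a median of 6.99 CPM per kb against 2.24 for 9 further granule cell genes, the highest of which was Lct at 9.20. Bok, at 10.4 CPM per kb, was above all 9 further CA3 genes, whose median was 1.25 and whose highest was Coch at 4.32. Mossy cell genes had a median of 0.513 CPM per kb. Genes of cells that the Wfs1 driver is not directed at were also present, with medians of 6.19 for interneurons, 19.4 for astrocytes, 21.2 for oligodendrocytes, 6.58 for microglia and 49.8 for choroid plexus, where Ttr reached 8281 CPM per kb. No library of the input RNA was analysed here, so these levels do not say whether a gene was enriched or depleted by the immunoprecipitation, and in which cells its reads arose was not tested.

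**Figure D2:**
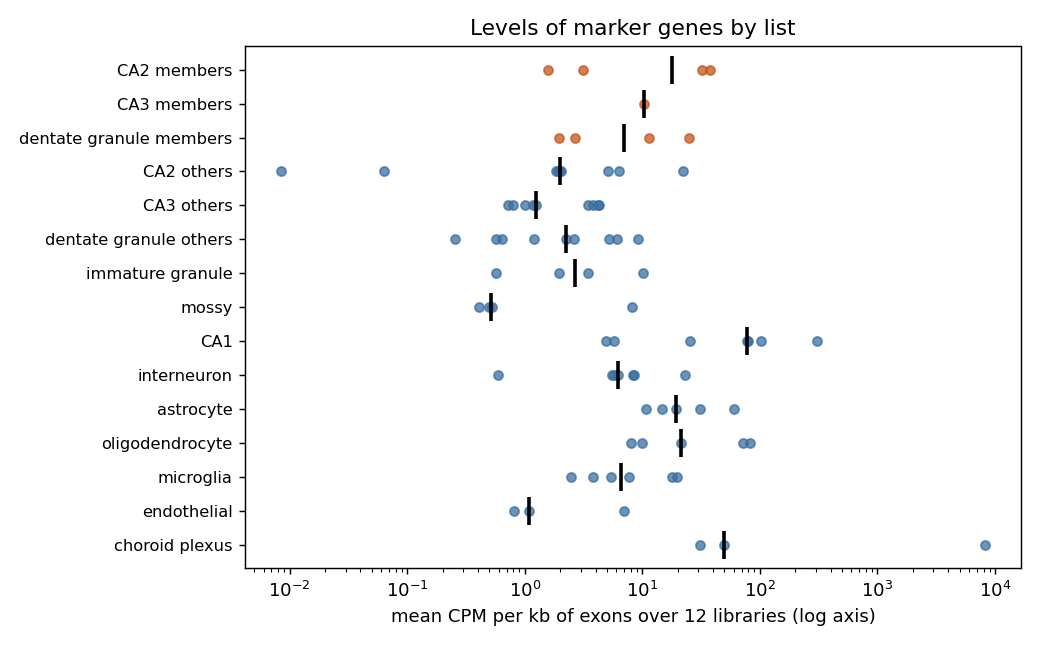
Mean level of each marker gene over 12 libraries, in CPM per kb of exons on a log axis, with one row per list; orange points are the 9 genes followed here, blue points are other markers, and the black bar is the median of the list. The CA1 list has a median of 78.1 CPM per kb, the 4 CA2 genes 17.8 and the 4 granule cell genes 6.99.

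Rgs14 (Entrez 51791; GRCm38 chr13:55369732-55384687, plus strand) encodes a regulator of G-protein signaling that binds Gi alpha subunits and H-Ras and is known to restrain potentiation in CA2 neurons. Its level ran from 139 to 201 CPM in wild-type libraries (median 155) and from 125 to 176 in Fmr1 -/y libraries (median 162). The groups overlapped over most of their range, with 1 Fmr1 -/y library below all wild-type libraries. Means were 160.4 ± 22.6 and 158 ± 18.4 CPM (SD, n = 6 each), and the log2 fold change was -0.02 with a standard error (SE) of 0.09 and a 95% interval from -0.22 to 0.18 (edgeR adjusted p = 0.984). Its sign turned with library totals in place of TMM. None of 8 genes listed as its family and partners passed, among them Gnai1, at -0.05 on the log2 scale, and Rgs10, at 0.26, which had the smallest p of the list (edgeR adjusted p = 0.654).

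Pcp4 (Entrez 18546; GRCm38 chr16:96467606-96525793, plus strand) encodes a small protein that binds calmodulin and speeds its exchange of calcium. It had the smallest p of the 9 genes. In wild-type libraries 1 to 6 its level was 27.2, 26.1, 30.1, 28.1, 28.1 and 31.0 CPM. In Fmr1 -/y libraries 1 to 6 it was 35.5, 54.0, 23.8, 42.1, 41.4 and 31.2 CPM. Of the 6 Fmr1 -/y libraries, 5 were above the highest wild-type library, library 6 by little, and library 3 was below the lowest wild-type library. Means were 28.4 ± 1.81 CPM and 38.0 ± 10.4 CPM (SD, n = 6 each), so that the mean of Fmr1 -/y libraries was 134% of wild type. The log2 fold change was 0.42 (SE 0.14, 95% interval 0.12 to 0.71, edgeR adjusted p = 0.410), and Pcp4 stood at rank 350 of all genes tested by its p. Without Fmr1 -/y library 3 the log2 fold change was 0.52 and without library 2 it was 0.29, with edgeR adjusted p of 0.171 and 0.524, so it did not pass in either case. The coefficient of variation was 6.39% among wild-type and 27.3% among Fmr1 -/y libraries. Pcp4 shares 243 exonic bases with Igsf5 on the same strand in GENCODE. Reads there would be left uncounted if the gene models used for counting overlap in the same way, which was not checked. Of its listed family and partners, none passed, with log2 fold changes of 0.15 for Pcp4l1, which had the smallest p of the list, and -0.11 for Nrgn, a calmodulin-binding protein of dendrites.

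Amigo2 (Entrez 105827; GRCm38 chr15:97244125-97247287, minus strand), a leucine-rich repeat adhesion protein, ran from 7.85 to 12.2 CPM in wild-type libraries (median 9.64) and from 8.12 to 11.7 CPM in Fmr1 -/y libraries (median 10.2). The Fmr1 -/y range lay inside that of wild type. Means were 9.90 ± 1.84 and 10.04 ± 1.64 CPM (SD, n = 6 each), with a log2 fold change of 0.02 (SE 0.14, 95% interval -0.27 to 0.30, edgeR adjusted p = 0.990) that turned negative when any of 6 single libraries was left out. Its relatives Amigo1 and Amigo3 had log2 fold changes of -0.03 and -0.04, and neither passed.

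Map3k15 (Entrez 270672; GRCm38 chrX:159988433-160123351, plus strand), a stress-activated kinase upstream of MAP kinases, ran from 5.34 to 7.63 CPM in wild-type libraries (median 6.57) and from 5.09 to 10.98 CPM in Fmr1 -/y libraries (median 7.18). The groups overlapped except for library 1 at 10.98 CPM and library 2 at 5.09 CPM, both Fmr1 -/y. Means were 6.48 ± 0.944 and 7.31 ± 2.01 CPM (SD, n = 6 each). The log2 fold change was 0.18 (SE 0.16, 95% interval -0.16 to 0.51, edgeR adjusted p = 0.859), and it fell to 0.02 without Fmr1 -/y library 1. None of the 6 kinases listed with it passed, with log2 fold changes from -0.10 for Map2k6 to 0.16 for Map3k5.

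Bok (Entrez 51800; GRCm38 chr1:93685660-93695764, plus strand), a BCL-2 family member that binds inositol trisphosphate receptors, was the only CA3 marker of the set. It ran from 15.3 to 21.7 CPM in wild-type libraries (median 18.4) and from 14.9 to 24.1 CPM in Fmr1 -/y libraries (median 20.0), and the wild-type range lay inside that of Fmr1 -/y. Means were 18.5 ± 2.58 and 19.9 ± 3.17 CPM (SD, n = 6 each), with a log2 fold change of 0.11 (SE 0.12, 95% interval -0.14 to 0.35, edgeR adjusted p = 0.891). It was 0.04 without Fmr1 -/y library 2, 0.06 and 0.07 without wild-type library 3 or 2, and 0.18 without Fmr1 -/y library 4. Of 8 genes listed as its family and partners none passed in edgeR, and the smallest p was that of Itpr1, the main inositol trisphosphate receptor of neurons, with 569 ± 31.1 CPM in wild type against 482 ± 16.2 CPM without FMRP (SD, n = 6 each), a log2 fold change of -0.24 and an SE of 0.05 (edgeR adjusted p = 0.181). The CPM of Itpr1 did not overlap between the genotypes, as for 0.623% of all genes tested. Itpr1 passed in DESeq2 (adjusted p = 0.00419) but not in limma voom (adjusted p = 0.195). Over all 17823 genes tested, 84 passed in DESeq2 and 4 in limma voom. Bax, Bak1, Bcl2 and Bcl2l1 had log2 fold changes from 0.03 to 0.11.

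Prox1 (Entrez 19130; GRCm38 chr1:190118035-190170714, minus strand), the homeobox transcription factor that specifies and maintains granule cell identity, had the lowest log2 fold change of the 9 genes. In wild-type libraries 1 to 6 its level was 14.0, 19.8, 24.4, 19.7, 21.2 and 11.1 CPM. In Fmr1 -/y libraries 1 to 6 it was 13.1, 11.95, 20.0, 19.9, 7.31 and 12.6 CPM. Of the Fmr1 -/y libraries, 4 were below 5 of the 6 wild-type libraries, but wild-type library 6 was lower than 3 of these 4, so the groups overlapped from 11.1 to 20.0 CPM. Means were 18.4 ± 4.92 and 14.1 ± 4.97 CPM (SD, n = 6 each), or 77.0% of wild type, with a log2 fold change of -0.38 (SE 0.22, 95% interval -0.84 to 0.08, edgeR adjusted p = 0.722). It ran from -0.50 to -0.24 with single libraries left out, the last without Fmr1 -/y library 5. Prox1 was also the most variable of the 9 genes within a genotype, with a pooled coefficient of variation of 31.2% where counting error alone would give 3.63%. The median over 2526 genes within 1.5-fold of its level was 12.2%, and 98.8% of these genes varied less. Of 6 genes listed with it none passed, and the smallest p was that of Zbtb20, a zinc finger factor of hippocampal neurons, which went from 4.37 ± 0.507 to 3.24 ± 0.915 CPM (SD, n = 6 each, log2 fold change -0.44, edgeR adjusted p = 0.549).

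Dsp (Entrez 109620; GRCm38 chr13:38151294-38198577, plus strand) encodes desmoplakin, which ties desmosomes to intermediate filaments and marks granule cells in the hippocampus. In wild-type libraries 1 to 6 its level was 25.2, 24.9, 33.9, 27.7, 32.3 and 20.2 CPM. In Fmr1 -/y libraries 1 to 6 it was 25.3, 22.3, 29.0, 25.2, 18.5 and 25.2 CPM. As for Prox1, wild-type library 6 and Fmr1 -/y library 5 were the lowest of their groups, and library 3 was the highest in each. Means were 27.4 ± 5.11 and 24.2 ± 3.51 CPM (SD, n = 6 each), with a log2 fold change of -0.18 (SE 0.12, 95% interval -0.44 to 0.08, edgeR adjusted p = 0.797). It was -0.11 without wild-type library 3 or without Fmr1 -/y library 5, and -0.25 without wild-type library 6. Of 10 listed genes of the desmosome, 9 were tested and none passed. Of these, 3 had an unadjusted p under 0.05 in edgeR: Pkp4, a plakophilin relative and the most abundant at 64.6 CPM per kb, with a log2 fold change of -0.29 (adjusted p = 0.301), the cadherin Dsc3 with -0.63 (adjusted p = 0.460) and Pkp3 with 1.05 (adjusted p = 0.374), the last at a mean of 0.374 CPM in wild-type libraries and with groups that did not overlap. Over all genes tested, 7.96% had such a p and 0.623% had groups that did not overlap.

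The secreted C1q-like proteins C1ql2 and C1ql3 are made by granule cells and act at mossy fiber synapses. C1ql2 (Entrez 226359; GRCm38 chr1:120340582-120343174, plus strand) ran from 19.2 to 27.9 CPM in wild-type libraries (median 23.0) and from 17.8 to 29.3 CPM in Fmr1 -/y libraries (median 20.6). The wild-type range lay inside that of Fmr1 -/y. Means were 23.0 ± 2.997 and 22.3 ± 4.53 CPM (SD, n = 6 each), with a log2 fold change of -0.05 (SE 0.12, 95% interval -0.30 to 0.21, edgeR adjusted p = 0.962) that turned positive when wild-type library 6 or Fmr1 -/y library 4 was left out. C1ql3 (Entrez 227580; GRCm38 chr2:13003457-13011806, minus strand) ran from 55.3 to 68.2 CPM in wild-type libraries (median 61.7) and from 57.2 to 76.2 CPM in Fmr1 -/y libraries (median 65.5), overlapping over most of that range. Means were 61.9 ± 4.60 and 65.4 ± 6.52 CPM (SD, n = 6 each), with a log2 fold change of 0.08 (SE 0.07, 95% interval -0.08 to 0.23, edgeR adjusted p = 0.866), which was 0.03 without Fmr1 -/y library 4 and 0.05 without wild-type library 4. C1ql3 was the steadiest of the 9 genes, with a pooled coefficient of variation of 8.79% where genes of like level had a median of 8.85%. Of 5 listed relatives and receptors 4 were tested and none passed. The smallest p was that of Nrxn3, a presynaptic neurexin, at 169 ± 9.51 CPM in wild type against 144 ± 12.5 CPM without FMRP (SD, n = 6 each, a log2 fold change of -0.23, edgeR adjusted p = 0.301), and Bai3, an adhesion receptor for C1q-like proteins, had a log2 fold change of -0.12 (edgeR adjusted p = 0.715).

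**Figure D3:**
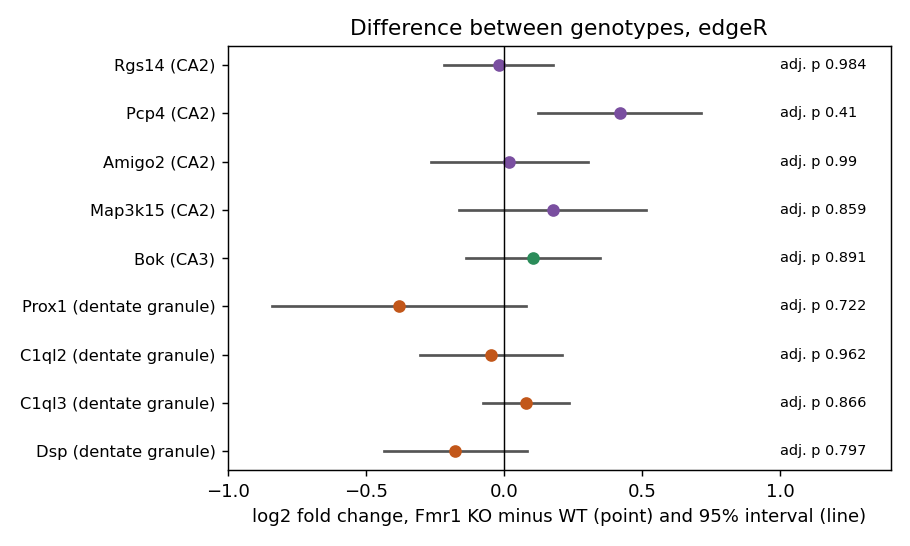
Log2 fold change of each of the 9 marker genes, Fmr1 -/y (Fmr1 KO) minus wild-type, as a point coloured by cell field with its 95% interval as a line, and the edgeR adjusted p at the right. The interval of Pcp4 runs from 0.12 to 0.71 and the intervals of the other 8 genes include 0.

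The further markers of the same fields did not pass the test either. Of 9 further CA2 genes, 2 had an unadjusted p under 0.05 in edgeR, the receptor Gpr12 with a log2 fold change of -0.24 (adjusted p = 0.515) and Cacng5, an auxiliary subunit of AMPA receptors, with -0.39 (adjusted p = 0.60), and the list's median was 0.0043. Of 9 further CA3 genes, 1 did, Coch with 0.58 (adjusted p = 0.417), and the median was -0.02. Of 9 further granule cell genes, 3 did, and they went both ways: Lct with -0.39 (adjusted p = 0.382), Stxbp6 with 0.27 (adjusted p = 0.410) and Plk5 with 0.60 (adjusted p = 0.429), with a median of 0.18. The 4 genes of immature granule cells, Dcx, Sox11, Neurod1 and Igfbpl1, all had log2 fold changes below 0, at -0.29 to -0.11 on the log2 scale, and none had an unadjusted p under 0.05. Over all genes tested, the median was 0.0042 and 7.96% had an unadjusted p under 0.05 in edgeR. These lists are given as counts and medians without a test of the list.

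Some lists of other cell types had fold changes of one sign in the same libraries, although no gene of these lists passed in edgeR. Over all genes tested, 7.96% had an unadjusted p under 0.05 in edgeR, and the lists were not tested as sets. The 7 CA1 genes all had log2 fold changes below 0, with a median of -0.16 and 3 of 7 at an unadjusted p under 0.05 in edgeR, and their summed level ran from 1985 to 2667 CPM in wild type and from 1786 to 2358 CPM without FMRP. The 3 choroid plexus genes, Ttr, Folr1 and Kcnj13, all had log2 fold changes above 0, each with an unadjusted p under 0.05, with a median of 0.48 and a summed level of 6025 to 11356 CPM and 7937 to 16705 CPM in the same order. The 5 astrocyte genes were all above 0 (median 0.22, 2 of 5 with an unadjusted p under 0.05, summed level 698 to 846 and 762 to 1188 CPM), as were the 3 endothelial genes (median 0.37, 2 of 3, summed level 19.0 to 29.6 and 24.1 to 38.7 CPM). Oligodendrocyte genes had a median of -0.17 (summed level 1056 to 1589 and 940.4 to 1459 CPM), interneuron genes -0.09 (103 to 220.3 and 113 to 155 CPM), microglia genes 0.03 (83.3 to 97.7 and 82.0 to 107 CPM) and mossy cell genes -0.08 (14.6 to 23.0 and 14.7 to 26.6 CPM), with none at an unadjusted p under 0.05. No defining marker of these lists was at 0, and their part in the values of the 9 marker genes was not tested.

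Whether the genes of a cell field varied together from pool to pool was asked next. Log2 CPM was centred on the mean of each genotype, and Pearson's r and Spearman's rho over the 12 libraries were tested with a two-sided permutation test that shuffled libraries within genotype, for 36 pairs of genes. The median r was -0.15 over the 12 pairs of the same field and -0.03 over the 24 pairs of different fields. Of the 36 pairs, 2 had an adjusted p under 0.05 by Pearson's r, both of the same field, and they had opposite signs. No pair passed by Spearman's rho.

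Prox1 and Dsp rose and fell together. Their r was 0.87 (permutation p = 0.00027, adjusted p = 0.00972) and their rho 0.79 (permutation p = 0.00424, adjusted p = 0.113). Within wild-type libraries r was 0.90 (exact permutation p = 0.0139, n = 6), and within Fmr1 -/y libraries it was also 0.90 (exact permutation p = 0.0236, n = 6). With the 2 libraries farthest from the median of Prox1 left out, wild-type library 6 and Fmr1 -/y library 5, r was 0.70 (permutation adjusted p = 0.138), so the call rested on those libraries, while the sign did not. Leaving out either alone gave r = 0.83 and 0.82 (permutation adjusted p = 0.0556 and 0.0662). The other granule cell genes did not follow this pair: r of Prox1 was -0.43 with C1ql2 and 0.04 with C1ql3, that of Dsp was -0.37 with C1ql2 and -0.21 with C1ql3, and that of C1ql2 with C1ql3 was 0.24, with permutation adjusted p of 0.580 to 0.948. The difference between these r values was not tested. Prox1 and Dsp have 8.39 and 9.66 kb of exons, and C1ql2 and C1ql3 have 2 and 2.535 kb. Each gene is set against a measure of transcript length below. The mean of the 9 further granule cell genes had r of -0.01 with Prox1, -0.16 with Dsp, -0.05 with C1ql2 and 0.17 with C1ql3.

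**Figure D4:**
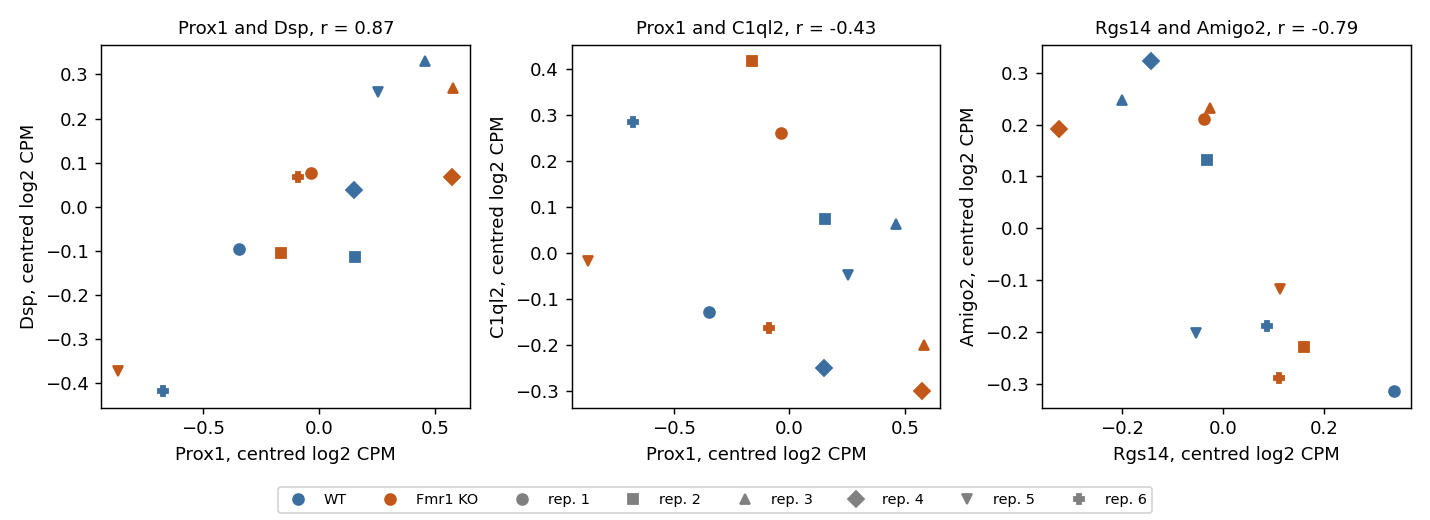
Log2 CPM of 3 pairs of marker genes, centred on the mean of each genotype, with one point per library (WT in blue, Fmr1 KO, the Fmr1 -/y libraries, in orange, symbol by replicate number). Prox1 and Dsp lie along a rising line (r = 0.87) whose lower end is wild-type library 6 and Fmr1 -/y library 5, Prox1 and C1ql2 do not (r = -0.43), and Rgs14 and Amigo2 lie along a falling one (r = -0.79).

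Since Prox1 and Dsp varied together and C1ql2 did not follow them, the 250 bases ahead of their RefSeq starts are shown side by side (GRCm38.p6, 5′ to 3′ on the strand of the gene). They lie at chr1:190170828-190171077 on the minus strand for Prox1, which has a further RefSeq start, at chr13:38151044-38151293 on the plus strand for Dsp, and at chr1:120340332-120340581 on the plus strand for C1ql2. Capitals mark matches, on either strand, to GGGCGG (the GC box), CAGATG and CAGCTG (E-boxes), TATAAA (the TATA box) and TGACGTCA (the cAMP response element), of which no matches overlap.
Prox1: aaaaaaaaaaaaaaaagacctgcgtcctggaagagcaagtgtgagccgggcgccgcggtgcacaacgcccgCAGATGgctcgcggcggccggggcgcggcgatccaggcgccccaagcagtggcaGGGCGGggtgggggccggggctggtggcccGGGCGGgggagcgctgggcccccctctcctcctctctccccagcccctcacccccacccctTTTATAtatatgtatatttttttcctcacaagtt
Dsp: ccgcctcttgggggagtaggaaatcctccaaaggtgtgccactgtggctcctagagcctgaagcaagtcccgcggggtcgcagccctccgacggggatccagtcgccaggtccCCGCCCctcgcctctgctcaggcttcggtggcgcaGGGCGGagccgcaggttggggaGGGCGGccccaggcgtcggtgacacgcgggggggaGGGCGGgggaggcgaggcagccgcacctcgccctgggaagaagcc
C1ql2: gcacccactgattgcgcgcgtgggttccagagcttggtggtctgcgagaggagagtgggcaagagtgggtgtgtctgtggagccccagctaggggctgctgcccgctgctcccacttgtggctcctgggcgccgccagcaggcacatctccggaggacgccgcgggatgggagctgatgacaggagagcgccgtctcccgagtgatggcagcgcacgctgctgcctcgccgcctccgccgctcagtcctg
The Prox1 window holds 2 GC boxes, 1 CAGATG and 1 TATA box, the last read as TTTATA on this strand. The Dsp window holds 4 GC boxes, 1 of them as CCGCCC, and none of the other letters, and the C1ql2 window holds none of the 5. C1ql3, which did not follow the pair either, has 2 GC boxes in its window and none of the others. The window of the further Prox1 start holds 1 GC box and neither CAGATG nor a TATA box. Whether any of these strings has a part in how the genes varied was not tested. Of 32851 windows of the same length, GGGCGG is found in 32.7%, CAGATG in 14.4%, CAGCTG in 13.0%, TATAAA in 12.4% and TGACGTCA in 1.55%. The G and C content is 64.8% for Prox1, 72.4% for Dsp and 68.8% for C1ql2, where the median window has 52.4%. A match is a string of letters in this window and says nothing of binding.

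Rgs14 and Amigo2, both CA2 markers, ran against each other, with r of -0.79 (permutation p = 0.00232, adjusted p = 0.0418) and rho of -0.73 (permutation p = 0.00911, adjusted p = 0.113). Wild-type library 1, the highest in Rgs14 at 201 CPM, was the lowest in Amigo2 at 7.85 CPM, and Fmr1 -/y library 4, the lowest in Rgs14 at 125 CPM, was among the higher in Amigo2 at 11.3 CPM. Within wild-type libraries r was -0.82 (exact permutation p = 0.0278, n = 6) and within Fmr1 -/y libraries -0.75 (exact permutation p = 0.0778, n = 6). Without those 2 libraries r was -0.85 (permutation adjusted p = 0.138), and with library totals in place of TMM it was -0.70 (permutation adjusted p = 0.103). The call was also lost when any 1 of 8 libraries was left out, namely wild-type library 1, 2, 3, 4 or 6 or Fmr1 -/y library 2, 5 or 6, with r from -0.73 to -0.79 and permutation adjusted p of 0.0556 to 0.190. Over the 6 pairs of CA2 genes r ran from -0.79 to 0.29, and the others did not pass. Among pairs of different fields, 2 had comparable r without passing, Bok with C1ql3 at -0.74 and Rgs14 with Prox1 at -0.71 (permutation adjusted p = 0.131 for both).

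**Figure D5:**
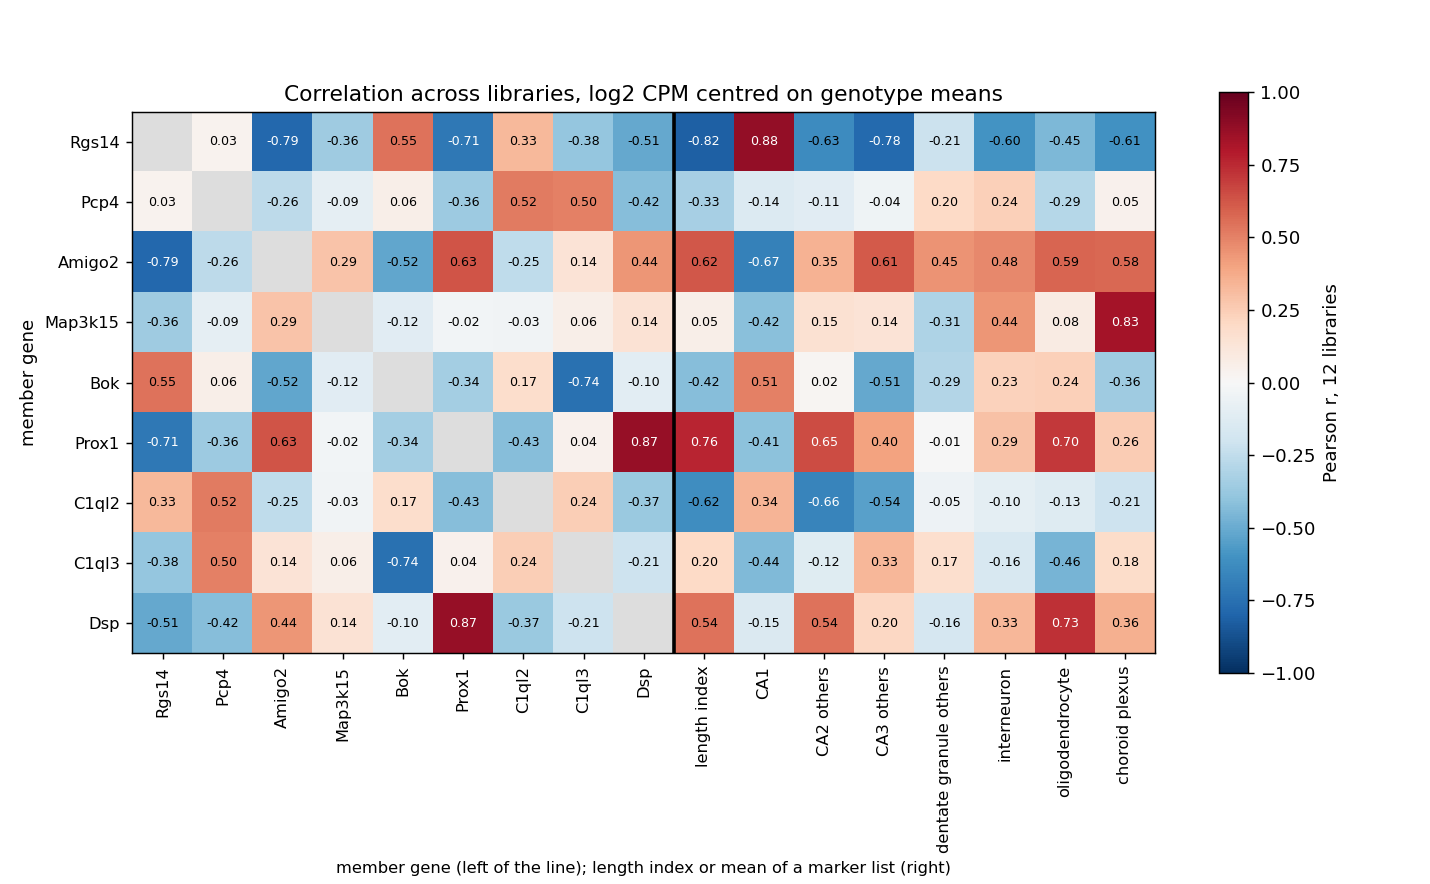
Pearson's r over 12 libraries between the 9 marker genes (left of the line) and between each of them and the length index or the mean of a marker list (right), all on log2 CPM centred on genotype means; red is positive, blue negative and grey the gene itself. The block of granule cell genes holds 1 high value, Prox1 with Dsp at 0.87, and the Rgs14 row runs from -0.82 with the length index to 0.88 with the CA1 list.

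Each marker gene was then set against the mean log2 CPM of 12 marker lists, 108 relations of which none had a permutation adjusted p under 0.05. The highest r was that of Rgs14 with the CA1 list, 0.88 (rho 0.84, permutation p = 0.00191 and 0.00213, adjusted p = 0.146 and 0.230), seen within wild-type (0.89) and within Fmr1 -/y libraries (0.90), and 0.54 without wild-type library 1 and Fmr1 -/y library 4. With the 9 further CA2 genes Rgs14 had an r of -0.63 and with the 9 further CA3 genes -0.78, which were -0.35 and -0.46 without the same 2 libraries and -0.18 and -0.33 with the length index, described below, removed. Map3k15 had its highest r with the choroid plexus list, 0.83 (rho 0.77, permutation p = 0.0027 and 0.00837, adjusted p = 0.146 and 0.252), and 0.66 without Fmr1 -/y libraries 1 and 2. Dsp and Prox1 had r of 0.73 and 0.70 with the oligodendrocyte list and of -0.62 and -0.70 with the endothelial list; without wild-type library 6 and Fmr1 -/y library 5 these were 0.51 and 0.43, and -0.68 and -0.74. The list of its own field gave Pcp4 an r of -0.11, Amigo2 0.35, Map3k15 0.15 and Bok -0.51.

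The same comparison was made with a measure of transcript length. For a length index, log2 CPM was centred on each gene's mean over the 12 libraries, for genes with a mean log2 CPM of at least 1. The index of each library was the median over 4354 genes with at least 6 kb of exons minus that over 1344 genes with at most 2 kb. It was added after these relations had been seen. It ran from -0.21 to 0.19, with a mean of 0.035 ± 0.153 in wild-type and -0.038 ± 0.146 in Fmr1 -/y libraries (SD, n = 6 each). With both centred on genotype means, its r was -0.82 with Rgs14 (permutation adjusted p = 0.0612), 0.76 with Prox1 (permutation adjusted p = 0.0677), 0.62 with Amigo2, -0.62 with C1ql2 and 0.54 with Dsp. It was 0.20 with C1ql3, -0.42 with Bok, -0.33 with Pcp4 and 0.05 with Map3k15. None of 18 relations with the index or with library depth passed. By their exon lengths Prox1 and Dsp are themselves among the long genes of the index. C1ql2, Pcp4 and Bok are among the short ones, and C1ql3, at 2.535 kb, is in neither set. With the index removed by regression r of Prox1 and Dsp was 0.84 (permutation adjusted p = 0.0227), that of Rgs14 and Amigo2 was -0.61 (permutation adjusted p = 0.521), that of Rgs14 and Prox1 -0.25, and that of Rgs14 and the CA1 list 0.77. With the log2 of total reads Prox1 and Dsp had r of -0.58 and -0.36 (permutation adjusted p = 0.228 and 0.531), which was -0.95 and -0.92 among the 6 Fmr1 -/y libraries and -0.11 and 0.11 among the 6 of wild type, and the most deeply sequenced library, Fmr1 -/y library 5, was the lowest in both genes. With the index as a covariate in edgeR the log2 fold change of Prox1 was -0.21 (adjusted p = 0.687) and that of Pcp4 was 0.37 (adjusted p = 0.326). The part of RNA quality was not tested. Each sequencing lane held 4 libraries according to the methods, but which ones is not named. How lane and genotype were arranged is therefore not known, and the part of the lane could not be tested.

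The genes whose levels were most like those of each marker over the 12 libraries are in none of the marker lists, which hold only a small part of the genes compared. Among 12788 genes with a mean log2 CPM of at least 1, the 3 highest r for Rgs14 were those of Tbl3 (0.98), Bin1 (0.98) and Prnp (0.97). Amigo2 was followed by Msi1 (0.93), Nacc2 (0.92) and St5 (0.92), and Prox1 by Fnip2 (0.96), Lonrf3 (0.96) and Frmd4b (0.95). Dsp was followed by Bdp1 (0.94), Spty2d1 (0.91) and Nrarp (0.90), which are not the genes nearest to Prox1. For C1ql2 the 3 were Fezf2 (0.95), D17H6S53E (0.89) and Bcl2l1 (0.88), and for C1ql3 Kcnip3 (0.92), Zfp942 (0.88) and Trhr (0.84). Map3k15 had Galm (0.92), Lamb1 (0.91) and Sqrdl (0.91). The nearest genes of Pcp4, Rnf135 (0.85), A330093E20Rik (0.83) and Cmtm5 (0.82), and of Bok, Hsf2 (0.90), 2510002D24Rik (0.85) and Mrpl34 (0.83), were less close. These values describe the same 12 libraries, are the highest of many, and carry no test.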

How the data were processed

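Ribosome-bound RNA of 12 libraries was measured by stranded sequencing. The authors aligned the reads with TopHat2 2.1.1 and Bowtie2 2.2.8 to mm10 with UCSC gene models and counted them per gene with HTSeq 0.6.1p1 in union mode on the opposite strand, after bcl2fastq 2.17 (versions from the submitters' processing notes and the methods). They deposited the counts without normalization, and these counts were used as they stand. Genotypes were taken from the sample labels. Replicates are separate pools of mice, and within each genotype the counts of all pairs of libraries differed by more than sampling noise.

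Genes with at least 15 reads in total were tested with edgeR 4.0.16 (TMM, quasi-likelihood, no covariate) run in R 4.3.3; p-values were adjusted after Benjamini and Hochberg, with 0.05 as threshold. The SE is the log2 fold change divided by the square root of F. Log2 CPM used a prior count of 2, and correlations used 100000 permutations, whose smallest p is 1e-05, or all 720 orders of 6 libraries. The code was tested on simulated data. Exon lengths (GENCODE M21) were found for 93.2% of the genes tested. They are not the models used for counting. Promoters were matched by Entrez identifier to RefSeq (GRCm38.p6) for 7 of the 9 genes.

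Alternatives were DESeq2 1.42.0, limma 3.58.1 voom, DESeq2's size factors or library totals, filterByExpr, at least 1 read in total or 10 in every library, robust fitting, a replicate block, each library left out and a threshold of 0.1. The length index and the correlations with each library left out were added after seeing the data. The genes named are the 9 markers, the 3 genes most like each, and members of the lists with the smallest p, the highest or lowest level, or on which a count turns. The members and lists were chosen with earlier results of these data known. The values of some listed genes are not reported here.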

Additional observations from a re-analysis of the deposited data

How the results depend on the processing

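None of the 9 marker genes passed in edgeR under any alternative, DESeq2 and limma voom included (lowest adjusted p 0.171, without Fmr1 -/y library 3). Of 198 recomputed log2 fold changes of the 9 genes, 11 changed sign and 0 changed side of the threshold. That of Rgs14 was 0.0037 with library totals only and ran from -0.059 to 0.055 when single libraries were left out (0.055 without wild-type library 1, 0.038 without Fmr1 -/y library 4). That of Amigo2 ran from -0.041 to 0.088 (-0.041, -0.021 and -0.019 without wild-type library 1, 5 or 6 and -0.024, -0.028 and -0.019 without Fmr1 -/y library 1, 3 or 4), and that of C1ql2 from -0.140 to 0.015 (0.015 without wild-type library 6, 0.0099 without Fmr1 -/y library 4). Over all genes tested, 4 passed in the main test, 84 in DESeq2, 1 with at least 10 reads in every library, 6 at a threshold of 0.1, 14 with the length index as covariate, and 2 to 6 with a library left out, 2 each without wild-type library 4, 5 or 6 or Fmr1 -/y library 1, 4, 5 or 6. The cause of these shifts was not tested. With the replicate block 4 genes passed and none of the 9, whose lowest adjusted p was 0.407. Same-numbered libraries had correlations of -0.08 to 0.09, so the numbers were not taken as pairs. Of the 36 pairs of marker genes, 2 were correlated past the threshold in the main analysis, 1 with library totals only or with the length index removed, and 0 with the 2 farthest libraries left out. Within wild-type or within Fmr1 -/y libraries 0 were. There 6 libraries give 720 orders, so a single pair of the 36 could not reach an adjusted p under 0.05. The counts within a genotype therefore do not decide whether a pair was correlated. With single libraries left out the number ran from 0 to 3, with 0 without wild-type library 6 or Fmr1 -/y library 5.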
